A study of Mus musculus with 24 samples.

Results

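The mitochondrial ribosomal protein genes are nuclear genes whose products build the ribosome inside mitochondria. They were taken here as the peaks of the acetylation mark H3K27ac for which the deposited peak table names a gene beginning with Mrpl or Mrps and a number, and whose nearer edge lay within 1000 bp of the start site (TSS) given there. The rule used no measured level. It found 96 peaks of 70 genes, out of 21507 peaks near a TSS by the same distance and 144154 peaks in all. By name 45 of the genes, with 60 peaks, belong to the large subunit (Mrpl) and 25, with 36 peaks, to the small subunit (Mrps). One peak was found for 45 genes, 2 peaks for 24 genes and 3 for Mrpl48.

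A mitochondrial ribosome consists of ribosomal RNA transcribed from mitochondrial DNA and of proteins that are made in the cytosol and imported. It translates the few messenger RNAs of mitochondrial DNA, which encode core subunits of the respiratory chain and of ATP synthase, and neurons draw much of the ATP for synaptic transmission from that chain. Many of its proteins have counterparts in bacteria (Mrpl12, Mrps7, Mrps11), and others are found only in mitochondria (Mrpl51, Mrpl53, Mrps35). The names are historical: the products of Mrps18a and Mrps30 sit in the large subunit, and that of Mrps36 is known as a part of the alpha-ketoglutarate dehydrogenase complex. H3K27ac, acetylated lysine 27 of histone H3, marks active promoters and enhancers and is removed by histone deacetylases.

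The data were low-input chromatin immunoprecipitation sequencing of H3K27ac from 12-week-old male C57BL/6J mice, in nuclei sorted for the neuronal protein NeuN. The labels give the dentate gyrus as the source, whereas the titles name the hippocampus. Vehicle (Veh) or CI-994 at 30 mg/kg, which inhibits histone deacetylases of class I (labelled HDACi), was injected intraperitoneally 1 h before the test, and the mice were killed 1 h after it. All 4 groups entered the same conditioning chamber for equal times. The CFC groups (contextual fear conditioning) had 3 min of habituation and then 2 foot shocks of 1 s at 0.2 mA, and the Context groups had none. Each of the 4 groups, Veh-CFC and Veh-Context with vehicle and HDACi-CFC and HDACi-Context with the drug, had 3 libraries. Conditioning was assigned by cage, so that an effect of shock and one of cage cannot be told apart. The labels do not say that the 3 libraries of a group came from separate mice, so p-values measure the spread between libraries.

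Total counts in peaks ranged from 6639158 to 16734757 per library. A member peak held between 1 and 680 counts in a library, with a median of 48, and 14 members had fewer than 10 counts in at least 1 library. Levels are in CPM, counts divided by the library total after scaling with the TMM factors of edgeR, so that a change at one peak is read against the remaining peaks. The promoters of 4 neuronal markers were acetylated, with a summed level between 327 and 518 CPM per library, and so were those of 4 dentate granule neuron markers (119 to 291 CPM). Those of 4 oligodendrocyte markers (76.2 to 151 CPM), of 3 of 4 microglia markers (22.4 to 35.7 CPM) and of 3 of 4 astrocyte markers (37.7 to 52.3 CPM) had signal as well, and none of 3 endothelial markers had a peak near its TSS.

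The start regions of 8 members are printed because these members are named in the results: Mrps18a and Mrps11 fell with the drug in both behaviours, Mrpl11 and Mrpl23 were among the largest drops in Context mice, and Mrpl28, Mrpl34, Mrpl51 and Mrpl12 were among the largest rises with shock. The peaks that gave these changes at Mrpl23, Mrpl28 and Mrpl12 lie downstream of the TSS and do not cover the printed bases. The regions of Mrps11, Mrpl11, Mrpl23 and Mrpl28 hold neither of the motifs in capitals. Each is the stretch of at most 150 bases before the RefSeq start in GRCm38.p6 (mm10), cut at the start of a neighbouring gene, read 5′ to 3′ along the gene. Capitals mark a match to the ETS motif CCGGAAG or to the 10-base NRF1 motif on either strand.
Mrps18a (chr17:46110854-46111003, plus strand): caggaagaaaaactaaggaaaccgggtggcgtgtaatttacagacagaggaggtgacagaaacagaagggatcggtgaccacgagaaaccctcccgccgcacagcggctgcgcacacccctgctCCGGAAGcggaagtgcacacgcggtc
Mrps11 (chr7:78783090-78783130, plus strand): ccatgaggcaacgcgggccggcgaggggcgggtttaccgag
Mrpl11 (chr19:4962156-4962305, plus strand): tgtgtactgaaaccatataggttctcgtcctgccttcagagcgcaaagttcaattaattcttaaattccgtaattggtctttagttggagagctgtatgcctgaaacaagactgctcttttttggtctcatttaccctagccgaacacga
Mrpl23 (chr7:142532882-142533031, plus strand): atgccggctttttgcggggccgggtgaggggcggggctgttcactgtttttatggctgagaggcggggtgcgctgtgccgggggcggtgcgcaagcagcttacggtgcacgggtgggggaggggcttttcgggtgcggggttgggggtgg
Mrpl28 (chr17:26123353-26123502, plus strand): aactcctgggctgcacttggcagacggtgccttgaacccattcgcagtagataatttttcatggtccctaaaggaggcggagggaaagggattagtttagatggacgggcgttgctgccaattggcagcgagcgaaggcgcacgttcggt
Mrpl34 (chr8:71464776-71464925, plus strand): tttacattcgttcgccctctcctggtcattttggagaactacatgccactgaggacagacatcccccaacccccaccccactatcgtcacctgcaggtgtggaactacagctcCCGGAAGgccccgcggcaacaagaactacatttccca
Mrpl51 (chr6:125192101-125192199, plus strand): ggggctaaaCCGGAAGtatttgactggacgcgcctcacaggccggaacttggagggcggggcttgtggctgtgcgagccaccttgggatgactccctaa
Mrpl12 (chr11:120484487-120484636, plus strand): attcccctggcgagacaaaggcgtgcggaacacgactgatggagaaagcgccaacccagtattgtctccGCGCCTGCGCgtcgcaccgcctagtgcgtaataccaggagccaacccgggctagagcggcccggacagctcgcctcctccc

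RefSeq promoter windows of 300 bases (250 before and 50 after the start) were found for 62 of the 70 genes, 68 windows in all. CCGGAAG, bound by ETS factors such as GABP, was held by 32.4% of the member windows, 8.86% of all 32851 windows and 15.7% of the windows of coding genes with a peak near the TSS. The motif of NRF1, a regulator of nuclear genes for mitochondria, was held by 17.6% of member windows against 4.60% and 9.43%. AAGATGGC, bound by YY1, was held by 17.6% against 2.75% and 4.01%. TGACGTCA, the cyclic AMP response element, was held by 2.94% against 1.79% and 3.00%, the Sp1 motif GGGCGG by 51.5% against 35.7% and 60.9%, and the E-box CACGTG by 10.3% against 7.15% and 9.54%. Both strands were searched, and matches of different motifs that overlap were each counted. The member windows held a median of 21 CpG dinucleotides, against 7 in all windows and 20 in those of coding genes with a peak near the TSS. These shares describe letters and show no binding.

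Many of these genes share their start region with a neighbour on the other strand. Of 62 members with a window, 20 (32.3%) had a coding gene starting in the opposite direction within 1000 bp, as had 11.1% of coding genes with a peak near the TSS. Mrps11 and Mrpl46, a pair of ribosomal protein genes of which Mrpl46 has no peak of its own in the rule, start 42 bp apart. Mrps12 starts 147 bp from Sars2, which encodes the mitochondrial seryl-tRNA synthetase, Mrpl47 308 bp from Ndufb5 of respiratory complex I, and Mrps7 224 bp from Gga3. A peak over such a region cannot be assigned to 1 of the 2 genes. The deposited annotation itself gives the transcript of Mrpl46 for the peak named Mrps11.

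By the deposited chromatin state, 75 of the 96 peaks (78.1%) were strong promoters, compared with 58.5% of all peaks near a TSS. Another 12 were primed enhancers, 5 active enhancers, 3 of a state called control and 1 a weak promoter. The TSS lay inside 35 peaks, 22 lay upstream of it and 39 downstream. Their median width was 1158 bp and their median level 3.69 CPM per kb, against 3.48 for all peaks near a TSS, 3.81 for 101 peaks of cytosolic ribosomal protein genes and 3.99 for 99 peaks of respiratory chain genes. Over the highest peak of each gene, the levels per kb were highest at Mrpl15 (6.52), Mrps35 (6.49) and Mrpl36 (6.16) and lowest at Mrpl14 (2.26), Mrps7 (2.13) and Mrpl23 (1.93). The members just inside the distance limit were a second, small peak of Mrpl23 and peaks of Mrpl41 and Mrpl20, with edges 944, 974 and 915.5 bp from the TSS. Those just outside lay at Mrps36 (1001.5 bp), Mrpl10 (1176 bp) and Mrps21 (1337.5 bp). In the drug comparison in Context mice the former had log2 changes of −0.16 ± 0.87, −0.10 ± 0.26 and 0.10 ± 0.17, and the latter 0.18 ± 0.21, 0.03 ± 0.35 and 0.49 ± 0.23 (SE).

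The level of the members was lowest in HDACi-Context and highest in Veh-CFC. The median member had 4.58 ± 0.22 CPM in Veh-Context and 5.35 ± 0.50 in Veh-CFC, and with the drug 3.21 ± 0.14 in HDACi-Context but 4.39 ± 0.16 in HDACi-CFC (SD, n = 3). The HDACi-Context libraries (3.09 to 3.36 CPM) lay below all others, and the Veh-CFC libraries (4.95 to 5.91 CPM) lay above all others. Between them, Veh-Context (4.34 to 4.78 CPM) and HDACi-CFC (4.28 to 4.58 CPM) overlapped. Of the 96 peaks, 66 had their highest group mean in Veh-CFC and 70 their lowest in HDACi-Context.

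Peaks near a TSS as a whole also differed between the groups, so the members were set against them. All such peaks held 21.9% ± 0.55 of a library's counts for Veh-Context and 25.8% ± 0.92 for Veh-CFC, and under the drug 19.0% ± 0.66 for HDACi-Context and 25.3% ± 0.10 for HDACi-CFC (SD, n = 3). The members took 0.252% ± 0.0039, 0.250% ± 0.0070, 0.214% ± 0.0043 and 0.207% ± 0.0030 of the counts near a TSS, in the same order. The 6 drug libraries (0.204% to 0.218%) all lay below the 6 vehicle libraries (0.242% to 0.257%), while CFC and Context libraries overlapped. Within strong-promoter peaks near a TSS the share of the strong-promoter members was 0.415% to 0.477% with the drug and 0.477% to 0.527% with vehicle. The highest drug library lay just below the lowest vehicle library. By group it was 0.510% to 0.527% in Veh-Context, 0.477% to 0.491% in Veh-CFC, 0.462% to 0.477% in HDACi-Context and 0.415% to 0.425% in HDACi-CFC. Under either treatment the CFC libraries thus lay below the Context libraries in this share, without overlap. The corresponding share of counts near a TSS was 0.376% to 0.389% with the drug and 0.394% to 0.420% with vehicle at cytosolic ribosomal protein genes. At respiratory chain genes the ranges overlapped, 0.401% to 0.462% and 0.454% to 0.493%.

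**Figure D1:**
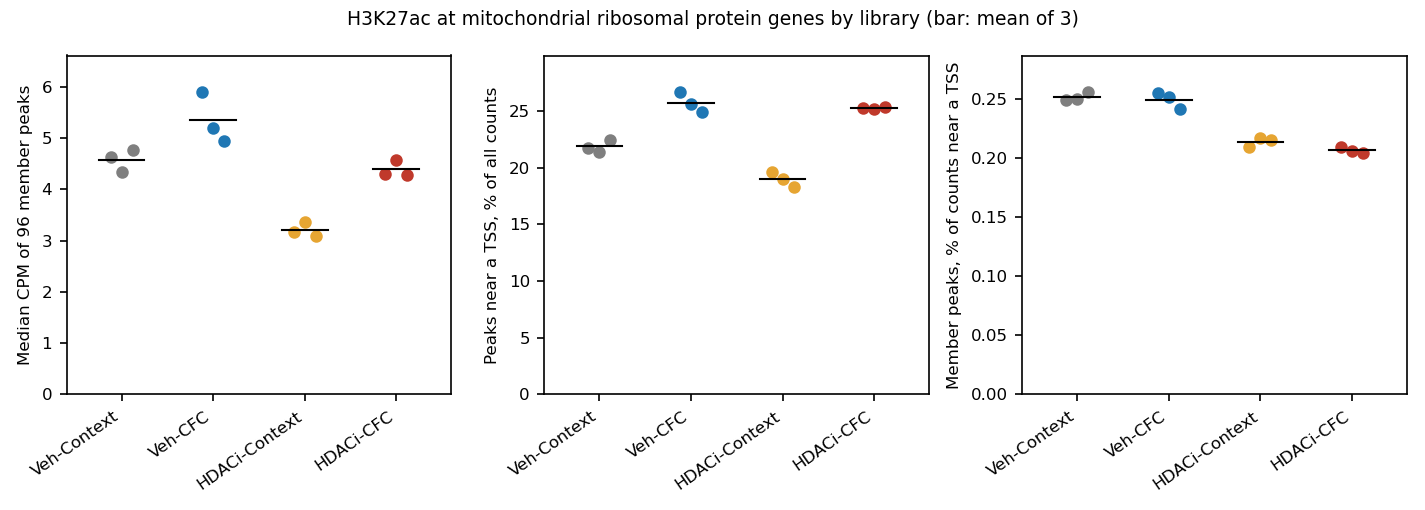
Each point is a library, in 4 groups of 3, and each bar the group mean. The left panel gives the median CPM of the 96 member peaks, the middle panel the percentage of all counts in peaks near a TSS, and the right panel the percentage of those counts that fell in member peaks, where the drug libraries (0.204% to 0.218%) sit below the vehicle libraries (0.242% to 0.257%).

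Relative to the remaining peaks, acetylation at many of these genes was lower with CI-994 in the unshocked mice. A change shared by all peaks could not be seen on this scale. In HDACi-Context against Veh-Context, 33 of 96 member peaks fell and 0 rose by edgeR's quasi-likelihood test (adjusted p under 0.05 over all 144014 peaks tested). Among all peaks near a TSS 21.3% fell and 0.917% rose, and among strong-promoter peaks near a TSS 27.6% fell. Changes are on the log2 scale and errors of single changes are SE. The members' median change was −0.51, against −0.30 for all peaks near a TSS, and 90 of 96 changes were negative. The 3 HDACi libraries all lay below the 3 vehicle libraries at 53 members and all above at 0, against 34.7% and 4.54% of peaks near a TSS. Over all peaks tested 5.85% fell and 2.73% rose, with a median change of −0.008. Their drug libraries all lay below the others at 13.3% and all above at 12.6%. All 33 drops were at strong-promoter peaks, of which the members hold 75, and 0 of the other 21 members fell. Most drops near a TSS were in that state as well, 3470 of 4573, with 12575 of 21487 tested peaks in it. At 54 members (56.2%) the unadjusted p was under 0.05 for a drop and at 0 for a rise, against 37.3% and 3.39% of peaks near a TSS. The summed levels of marker promoters were lower in HDACi-Context than in Veh-Context too: 327 to 346 against 406 to 451 CPM for neurons, 119 to 142 against 178 to 196 for granule neurons, 76.2 to 83.2 against 101 to 114 for oligodendrocytes and 22.4 to 24.3 against 24.9 to 29.0 for microglia. The astrocyte markers overlapped (37.7 to 42.8 and 38.4 to 44.5 CPM). Read singly by edgeR, 1 of 4 neuron, 1 of 4 granule neuron and 2 of 4 oligodendrocyte markers fell. Of the 3 microglia markers 2 fell and of the 3 astrocyte markers 0, and 0 rose in any list. Their part in the result was not tested.

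The 8 largest drops in Context mice, over the highest peak of each gene, were at Mrpl11, Mrpl12, Mrpl22, Mrpl23 and Mrpl28 of the large and Mrps11, Mrps17 and Mrps35 of the small subunit. Mrpl11, whose product lies at the base of the factor-binding stalk, has a peak over its start (chr19:4961385-4962860, mm10; promoter by annotation). It held 10.2, 8.98 and 12.4 CPM in Veh-Context and 8.35, 9.76 and 8.07 in Veh-CFC, and with the drug 6.81, 4.40 and 4.62 in HDACi-Context and 6.09, 7.70 and 5.54 in HDACi-CFC. The HDACi-Context libraries lay below the Veh-Context libraries, and the HDACi-CFC libraries below those of Veh-CFC by less. The change was −1.03 ± 0.17 (edgeR adjusted p = 7.7e-05) in Context and −0.46 ± 0.19 (edgeR adjusted p = 0.28) in CFC mice. Mrpl22, which lines the exit tunnel, held 5.82, 5.45 and 6.47 CPM in Veh-Context and 6.68, 5.73 and 6.37 in Veh-CFC, and with the drug 3.06, 2.43 and 3.54 in HDACi-Context and 5.65, 5.30 and 5.63 in HDACi-CFC at chr11:58171252-58172736 (intron 2 of 6). The 3 HDACi-Context libraries were the lowest of the 12, and the change was −0.99 ± 0.19 (edgeR adjusted p = 5.0e-04). Mrpl23, also of the tunnel region, fell by a like size (−1.09 ± 0.27, edgeR adjusted p = 0.0063). Mrps17, a protein of the small subunit body, held 7.09, 6.48 and 6.98 CPM in Veh-Context and 8.35, 9.44 and 6.37 in Veh-CFC, and with the drug 3.68, 4.23 and 3.06 in HDACi-Context and 6.09, 5.93 and 5.38 in HDACi-CFC. Both drug groups lay below both vehicle groups, and the change in Context mice was −0.91 ± 0.19 (edgeR adjusted p = 9.1e-04).

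Mrps11, in the platform of the small subunit, fell from 9.48, 9.86 and 10.9 CPM in Veh-Context to 6.05, 4.81 and 4.90 in HDACi-Context, at the peak chr7:78782310-78784169 that covers the start region shared with Mrpl46 printed above. That change was −0.95 ± 0.16 (edgeR adjusted p = 9.2e-05). The other named drops were Mrpl28 (−1.02 ± 0.27, edgeR adjusted p = 0.0097), Mrpl12 (−0.96 ± 0.24, edgeR adjusted p = 0.0073), the stalk protein that also binds the mitochondrial RNA polymerase, and Mrps35 (−0.85 ± 0.23, edgeR adjusted p = 0.014). Over the highest peak of each gene the largest changes above 0 did not pass: 0.12 ± 0.23 at Mrpl44, 0.11 ± 0.26 at the downstream peak of Mrps9 and 0.10 ± 0.17 at Mrpl20. A second, upstream peak of Mrpl44, named after its values were seen, had the highest value of the 96 (0.23 ± 0.37) and did not pass. The count of drops was 10 (10.4%) without Veh-Context replicate 3, where 10.2% of peaks near a TSS fell, and 18 without HDACi-Context replicate 2, where 13.2% fell. In the first of these fits the members' share was close to that of peaks near a TSS. Without Veh-Context replicate 3 the calls were lost at Mrpl12 (edgeR adjusted p = 0.18), Mrpl23 (0.086), Mrpl28 (0.13) and Mrps35 (0.064). The Mrpl12 call was also lost without HDACi-Context replicate 3 (edgeR adjusted p = 0.064) and the Mrps35 call without HDACi-Context replicate 2 (0.065).

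Among shocked mice fewer members passed the test when HDACi-CFC was set against Veh-CFC. Of 96 peaks 4 fell and 0 rose by edgeR, while 2.13% of peaks near a TSS fell and 0.652% rose, with drops at 3.35% of those in the strong-promoter state. The median change was −0.36, against −0.08 for all peaks near a TSS, and 87 of 96 changes were negative. At 34 members (35.4%) the unadjusted p was under 0.05 for a drop and at 1 for a rise, against 15.3% and 6.29% of peaks near a TSS. The 3 drug libraries all lay below the 3 vehicle libraries at 32 members and all above at 1, against 17.7% and 8.93% of peaks near a TSS. For all peaks tested 0.435% fell and 0.483% rose, with a median change of −0.014. Their drug libraries all lay below the others at 8.52% and all above at 8.57%. The summed level of the microglia markers was 22.7 to 25.1 CPM in HDACi-CFC and 27.2 to 35.7 in Veh-CFC, and that of the granule neuron markers 195 to 263 and 265 to 291. The neuron, oligodendrocyte and astrocyte markers overlapped between these groups. Read singly by edgeR, 0 markers of these 5 lists rose or fell, and the median change of the granule neuron markers was −0.06. Their part in the result was not tested.

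The largest of these drops was at Mrps18a, whose peak (chr17:46110451-46111823) covers the start region with the ETS match printed above. It held 6.27, 4.27 and 7.13 CPM in Veh-Context and 7.06, 5.41 and 7.22 in Veh-CFC, and with the drug 2.71, 3.88 and 3.60 in HDACi-Context and 3.48, 3.33 and 3.02 in HDACi-CFC. All 6 drug libraries lay below all 6 vehicle libraries, and the change was −0.99 ± 0.22 (edgeR adjusted p = 0.014) in CFC and −0.83 ± 0.20 (edgeR adjusted p = 0.0053) in Context mice. Mrps33, a small-subunit protein without a bacterial counterpart, held 9.76, 10.5 and 12.9 CPM in Veh-CFC and 6.01, 7.07 and 7.31 in HDACi-CFC at an intronic peak, a change of −0.70 ± 0.17 (edgeR adjusted p = 0.027). In Context mice its groups overlapped (−0.29 ± 0.16). Mrps11 held 16.6, 13.8 and 13.4 CPM in Veh-CFC and 9.27, 11.4 and 8.48 in HDACi-CFC, with no overlap (−0.59 ± 0.16, edgeR adjusted p = 0.046). Over the highest peak of each gene the largest changes above 0 did not pass, 0.23 ± 0.27 at Mrpl54, 0.21 ± 0.17 at Mrpl34 and 0.10 ± 0.21 at Mrps7. A second peak of Mrps12, of the decoding centre, named after its values were seen, had the highest value of the 96, 0.50 ± 0.23 (edgeR adjusted p = 0.37), with its 3 drug libraries above the 3 vehicle libraries. The remaining drop was at the smaller, upstream peak of Mrps28 (chr3:8923872-8924679), named here after its values were seen. It held 6.68, 5.20 and 5.10 CPM in Veh-CFC and 3.26, 2.81 and 2.77 in HDACi-CFC (−0.93 ± 0.21, edgeR adjusted p = 0.019). With any 1 of the 3 HDACi-CFC libraries left out, 0 members were called, and 0.330% to 0.698% of peaks near a TSS fell. Without Veh-CFC replicate 1 the count was 2 (2.98% of peaks near a TSS), and without replicate 2 or replicate 3 it was 1 (0.409% and 1.10%). The Mrps18a call was lost without Veh-CFC replicate 3 and without HDACi-CFC replicates 1, 2 and 3 (edgeR adjusted p = 0.069, 0.057, 0.058 and 0.10). That of Mrps33 was lost without those 4 libraries or Veh-CFC replicate 2 (edgeR adjusted p up to 0.18), and that of Mrps11 in 10 of the 12 fits that left out a library (up to 0.26).

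**Figure D2:**
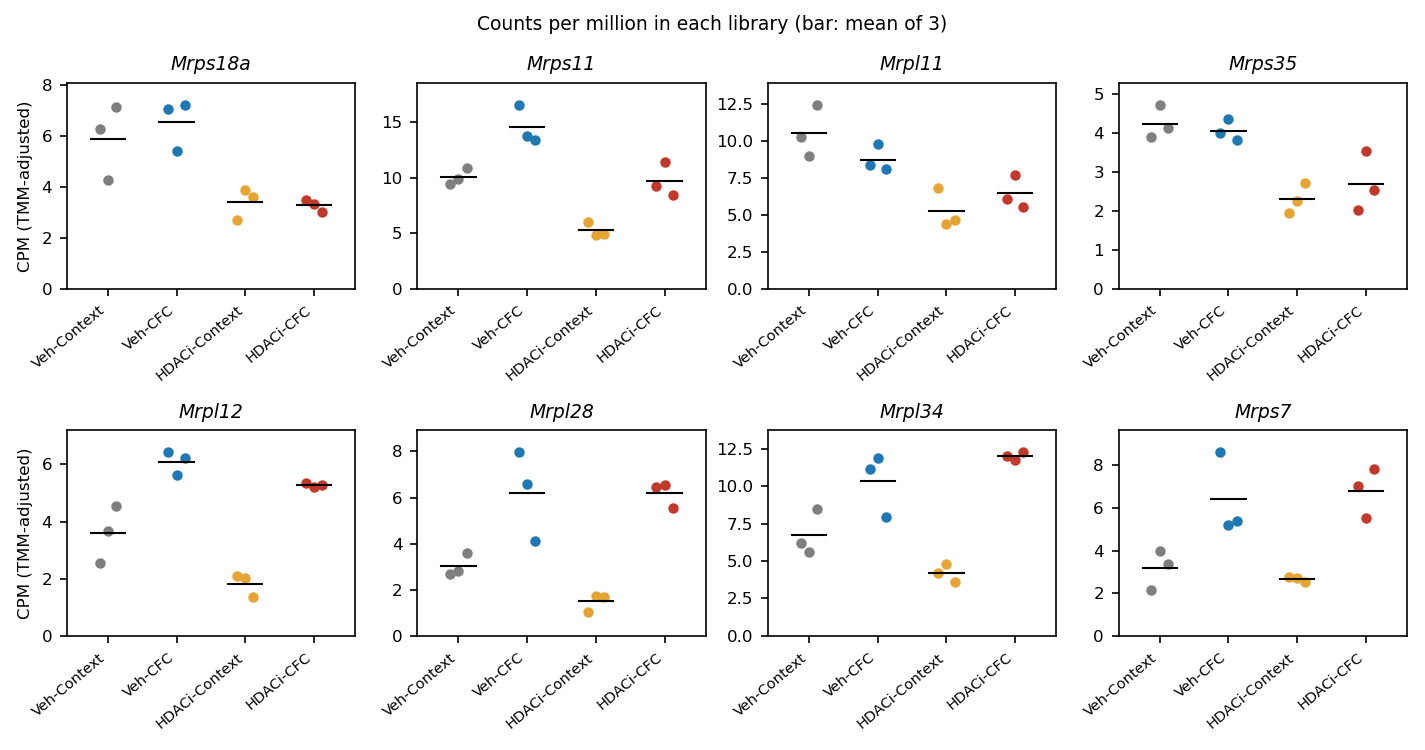
CPM in each library (points; 4 groups of 3) and group means (bars) at the highest peak of 8 members, on linear axes from 0. At Mrps18a and Mrps35 the drug libraries lie below the vehicle libraries in both behaviours, and at Mrpl12, Mrpl28 and Mrps7 the CFC libraries lie above the Context libraries under both treatments.

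Over both behaviours, with 6 libraries each, 42 of 96 member peaks fell with the drug and 0 rose, against 21.9% and 2.42% of peaks near a TSS. In the strong-promoter state 40 of 75 member peaks fell (53.3%), against 30.4% of all strong-promoter peaks near a TSS. The median change was −0.45 against −0.19 for all peaks near a TSS. All 6 drug libraries lay below all 6 vehicle libraries at 14 members, against 5.13% of peaks near a TSS. At 62 members (64.6%) the unadjusted p was under 0.05 for a drop and at 0 for a rise, against 35.5% and 5.56% of peaks near a TSS. Among all 144014 peaks 5.81% fell and 3.52% rose, with a median change of −0.019. Their drug libraries all lay below the others at 1.16% and all above at 1.04%. Taking the highest peak per gene, 37 of 70 genes fell. The largest drops among these were Mrps18a (−0.91 ± 0.15, edgeR adjusted p = 2.9e-05), Mrps16 (−0.83 ± 0.19, edgeR adjusted p = 0.0030), Mrps11 (−0.77 ± 0.11, edgeR adjusted p = 4.3e-06), Mrpl51 (−0.76 ± 0.16, edgeR adjusted p = 8.8e-04), Mrpl11 (−0.74 ± 0.13, edgeR adjusted p = 6.4e-05), Mrps35 (−0.74 ± 0.17, edgeR adjusted p = 0.0026), Mrpl23 (−0.73 ± 0.18, edgeR adjusted p = 0.0067) and Mrpl49 (−0.73 ± 0.16, edgeR adjusted p = 0.0018). Mrps35, a small-subunit protein found only in mitochondria, held 3.88, 4.71 and 4.12 CPM in Veh-Context and 3.98, 4.35 and 3.82 in Veh-CFC, and with the drug 1.95, 2.26 and 2.72 in HDACi-Context and 2.03, 3.54 and 2.52 in HDACi-CFC at its upstream peak. There the 6 drug libraries were the lowest of the 12. Mrps16 held 2.99, 3.09 and 2.21 CPM in Veh-Context and 3.08, 3.82 and 4.11 in Veh-CFC, and with the drug 1.25, 1.51 and 1.97 in HDACi-Context and 1.67, 2.08 and 2.27 in HDACi-CFC, and its HDACi-CFC library at 2.27 overlapped the lowest Veh-Context library. At the highest peaks the largest changes above 0 were 0.05 ± 0.18 at Mrps9, 0.02 ± 0.12 at Mrpl20 and 0.01 ± 0.20 at Mrps30, and none passed. The values of these 3 lay on either side of 0 when single libraries were left out. Second peaks of Mrps12 (0.25 ± 0.16) and Mrpl44 (0.17 ± 0.28), named after their values were seen, were higher and did not pass.

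The drug effects in the 2 behaviours share no library. Of the 4 members that fell in CFC mice 3 also fell in Context mice, Mrps18a, Mrps11 and the upstream peak of Mrps28, and 85 of 96 changes (88.5%) had the same sign in both. Among peaks near a TSS 403 of the 458 that fell in CFC mice (88.0%) also fell in Context mice, and 66.6% had the same sign. The difference between them (CFC value less Context value) passed at 0 members by edgeR and at 0 by DESeq2. By edgeR it passed at 0.14% of peaks near a TSS in the direction above 0 and 0% below, and by DESeq2 at 2.18% and 0.00465%. Over all peaks tested by edgeR the shares were 0.034% and 0.000694%. At an unadjusted p under 0.05, 9 members (9.38%) had a difference above 0 and 0 below, against 16.6% and 0.796% of peaks near a TSS. The median difference was 0.15, against 0.21 for all peaks near a TSS. Over the highest peak of each gene the largest were 1.00 ± 0.34 (edgeR adjusted p = 0.21) at Mrpl28, 0.91 ± 0.25 (edgeR adjusted p = 0.11) at Mrpl34 and 0.87 ± 0.41 (edgeR adjusted p = 0.45) at Mrpl54. At Mrpl34 the difference passed without Veh-CFC replicate 1 and without HDACi-Context replicate 1 (edgeR adjusted p = 0.033 and 0.041). The members past the threshold numbered 1 and 2 in those fits, where 4.66% and 6.32% of peaks near a TSS passed with a difference above 0. Among the highest peaks of each gene the most negative were −0.70 ± 0.37 at Mrpl19, −0.41 ± 0.23 at Mrps33 and −0.40 ± 0.33 at Mrpl37, none of which passed. Among second peaks, named after their values were seen, the difference was 1.03 ± 0.48 at the upstream peak of Mrpl12, −0.48 ± 0.48 at Mrps24 and −0.45 ± 1.13 at Mrpl23, and none passed.

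**Figure D3:**
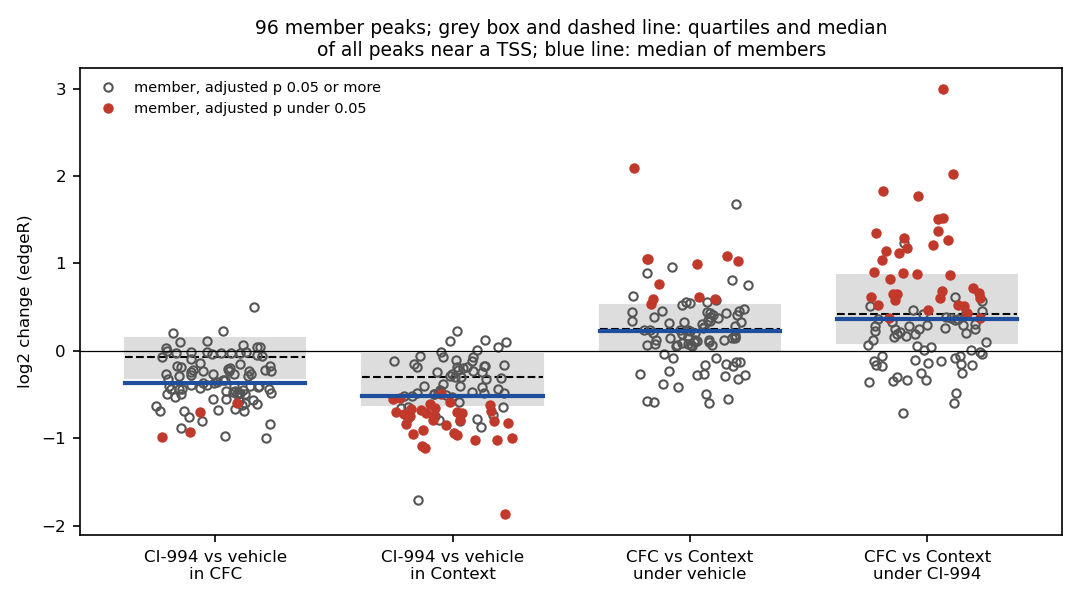
Log2 changes of the 96 member peaks (points, filled where the edgeR adjusted p was under 0.05) in 4 comparisons, over the quartiles (grey box) and median (dashed line) of all peaks near a TSS. The members' median (blue line) lies below the dashed line in both drug comparisons (−0.36 against −0.08, and −0.51 against −0.30) and close to it in both shock comparisons.

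By subunit name, 24 of 60 large-subunit peaks and 18 of 36 small-subunit peaks fell with the drug over both behaviours, with medians of −0.39 and −0.52. In Context mice 19 and 14 fell, and in CFC mice 0 and 4. The names count Mrps18a, Mrps30 and Mrps36 as small-subunit genes, against the placement of their products given above. Mrps18a was 1 of the 4 drops in CFC mice. The difference between the subunits was not tested. By position, 21 of 35 peaks over the TSS fell over both behaviours (median −0.54), 9 of 22 upstream peaks (−0.49) and 12 of 39 downstream peaks (−0.37). Of all peaks near a TSS 33.8% over it, 21.4% upstream and 14.1% downstream fell, in the same order. Outside the strong-promoter state 2 of 21 fell (−0.25). Drops near a TSS were mostly in that state too, 3817 of 4710, with 12575 of 21487 tested peaks in it. Across the 96 members the change over both behaviours had a Spearman rho of −0.36 with the level per kb and 0.28 with width. These 96 points share the same 12 libraries, and some share a promoter, so they are given as a description.

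Relative to the remaining peaks, acetylation at some members was higher after shock in the vehicle groups, as it was at other promoters. In Veh-CFC against Veh-Context 11 of 96 member peaks rose and 0 fell by edgeR, a share close to the 14.1% of all peaks near a TSS that rose (0.47% fell). Of all peaks tested 2.74% fell and 4.41% rose, with a median change of −0.004. Their CFC libraries all lay below the others at 12.7% and all above at 12.6%. The members' median change was 0.23, against 0.25 for all peaks near a TSS. The 3 CFC libraries all lay above the 3 Context libraries at 25 members and all below at 5, against 30% and 3.97% of peaks near a TSS. Summed levels of marker promoters were higher too: that of 4 oligodendrocyte markers was 101 to 114 CPM in Veh-Context and 132 to 151 in Veh-CFC, and that of 4 granule neuron markers 178 to 196 and 265 to 291 CPM. The neuron markers held 406 to 451 CPM in Veh-Context and 452 to 507 in Veh-CFC and the astrocyte markers 38.4 to 44.5 and 48.1 to 50.0, while the microglia markers overlapped (24.9 to 29.0 and 27.2 to 35.7). Read singly by edgeR, 2 of 4 oligodendrocyte, 1 of 4 granule neuron and 1 of 4 neuron markers rose. Of the 3 astrocyte and 3 microglia markers 0 rose, and 0 fell in any list. The median change of the neuron markers was 0.04. Their part in the result was not tested.

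Mrpl53, found only in the mitochondrial large subunit, had 4.93, 5.89 and 7.42 CPM in Veh-Context and 17.2, 12.6 and 8.78 in Veh-CFC, with no overlap. That change was 1.08 ± 0.21 (edgeR adjusted p = 0.0026), at an active-enhancer peak (chr6:83106661-83109037) annotated to an exon of another transcript. Mrps7, which binds the head of the small-subunit ribosomal RNA, held 2.17, 3.97 and 3.38 CPM in Veh-Context and 8.61, 5.20 and 5.38 in Veh-CFC, and with the drug 2.78, 2.72 and 2.52 in HDACi-Context and 7.03, 5.51 and 7.81 in HDACi-CFC at an intronic primed-enhancer peak. Its CFC libraries lay above its Context libraries under both treatments (1.06 ± 0.24, edgeR adjusted p = 0.0054 under vehicle). Mrps15 rose by 1.05 ± 0.24 (edgeR adjusted p = 0.0071), Mrpl28 by 1.03 ± 0.23 (edgeR adjusted p = 0.0064) and Mrpl51 by 1.00 ± 0.22 (edgeR adjusted p = 0.0051). Smaller rises were called at Mrpl12 (0.76 ± 0.22, edgeR adjusted p = 0.030), Mrps24 (0.61 ± 0.20, edgeR adjusted p = 0.047) and Mrps6 (0.60 ± 0.19, edgeR adjusted p = 0.043). Over the highest peak of each gene the largest changes below 0 were −0.59 ± 0.25 at Mrpl36, −0.58 ± 0.23 at Mrps10 and −0.55 ± 0.22 at Mrps36, and none passed. The upstream peak of Mrps33, named after its values were seen, had −0.59 ± 0.30 and did not pass. The change at Mrps36 passed without Veh-CFC replicate 3 (edgeR adjusted p = 0.046).

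The number of rises under vehicle was 1 without Veh-CFC replicate 1, 3 without Veh-Context replicate 1, and 5 without Veh-Context replicate 2 or without Veh-CFC replicate 2. In these fits 3.53%, 3.74%, 8.54% and 9.37% of peaks near a TSS rose. DESeq2 gave 7. Without Veh-CFC replicate 1 the calls were lost at Mrps7 (edgeR adjusted p = 0.11), Mrps15 (0.067), Mrpl28 (0.091), Mrpl51 (0.074) and Mrpl12 (0.14). Without Veh-Context replicate 1 they were lost at Mrps7 (0.082), Mrpl28 (0.062) and Mrpl12 (0.24). The Mrpl12 call was also lost without Veh-Context replicate 2 (0.056) or Veh-CFC replicate 2 (0.052). Those of Mrps24 and Mrps6 were lost in 10 and 7 of the 12 fits that left out a library, with adjusted p up to 0.20 and 0.34.

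Under CI-994 the difference between shocked and unshocked mice passed at more members, although the difference between the 2 shock effects, which is the contrast already given for the drug effects, passed at 0. In HDACi-CFC against HDACi-Context 36 of 96 member peaks rose and 0 fell by edgeR, where 45.3% of all peaks near a TSS rose and 2.02% fell. The median change was 0.36, against 0.42 for all peaks near a TSS. The CFC libraries all lay above the Context libraries at 44 members and all below at 3, against 53.4% and 4.3%. Among all 144014 peaks 17.8% fell and 20.2% rose, with a median change of −0.050. Their CFC libraries all lay below the others at 24.7% and all above at 24.1%. The oligodendrocyte markers' summed level was 76.2 to 83.2 CPM in HDACi-Context and 125 to 147 in HDACi-CFC, and that of the granule neuron markers 119 to 142 and 195 to 263 CPM. For neuron markers it was 327 to 346 and 486 to 518 CPM, for astrocyte markers 37.7 to 42.8 and 47.9 to 52.3, and for microglia markers, which overlapped, 22.4 to 24.3 and 22.7 to 25.1. Read singly by edgeR, 2 of 4 oligodendrocyte, 3 of 4 granule neuron, 2 of 4 neuron and 1 of 3 astrocyte markers rose and 0 fell. Of the 3 microglia markers 2 rose and 1 fell. Their part in the result was not tested.

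The largest rise under the drug among the highest peaks of each gene was at Mrpl28, a large-subunit protein with a bacterial counterpart. It held 2.69, 2.80 and 3.60 CPM in Veh-Context and 7.96, 6.57 and 4.11 in Veh-CFC, and with the drug 1.04, 1.74 and 1.70 in HDACi-Context and 6.45, 6.55 and 5.54 in HDACi-CFC at chr17:26123635-26124951 (intron 1 of 4). The HDACi-Context libraries were the lowest and did not overlap any other group, and the 6 CFC libraries lay above the 6 Context libraries. Its change with shock was 2.03 ± 0.24 (edgeR adjusted p = 8.3e-09), and over both treatments 1.53 ± 0.17 (edgeR adjusted p = 1.3e-09). Mrpl34, whose start region with an ETS match is printed above, held 6.20, 5.59 and 8.45 CPM in Veh-Context and 11.2, 11.9 and 7.93 in Veh-CFC, and with the drug 4.17, 4.81 and 3.60 in HDACi-Context and 12.0, 11.8 and 12.3 in HDACi-CFC. The HDACi-CFC libraries lay close together and above nearly all others, while 1 Veh-CFC library overlapped Veh-Context (1.51 ± 0.17, edgeR adjusted p = 4.7e-09 under the drug). Mrpl12 was read at a downstream peak that does not cover the NRF1 match printed above. It held 2.54, 3.68 and 4.56 CPM in Veh-Context and 6.42, 5.62 and 6.23 in Veh-CFC, and with the drug 2.09, 2.03 and 1.36 in HDACi-Context and 5.36, 5.20 and 5.29 in HDACi-CFC, and every CFC library lay above every Context library (1.52 ± 0.23, edgeR adjusted p = 1.2e-06).

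Mrpl54 had the widest of the 96 peaks, 11203 bp in an active-enhancer state, annotated to a transcript's end, and held 18.5, 20.0 and 26.9 CPM in Veh-Context and 57.2, 41.7 and 28.5 in Veh-CFC, and with the drug 19.1, 13.9 and 9.25 in HDACi-Context and 49.3, 51.0 and 49.6 in HDACi-CFC. Its Context and CFC libraries did not overlap, and the change under the drug was 1.83 ± 0.29 (edgeR adjusted p = 9.0e-04). Mrps7 (1.35 ± 0.21), Mrpl14 (1.29 ± 0.30), Mrpl53 (1.27 ± 0.21) and Mrps2 (1.21 ± 0.35) also rose, and these 8 calls held in all the alternatives in which the peaks were tested. Over the highest peak of each gene the largest changes below 0 did not pass: −0.33 ± 0.16 at Mrps33, −0.26 ± 0.23 at Mrps10 and −0.26 ± 0.26 at Mrpl19. Upstream second peaks of Mrpl3 (−0.71 ± 0.41), Mrps33 (−0.59 ± 0.30), Mrps9 (−0.48 ± 0.35) and Mrps28 (−0.36 ± 0.21), named after their values were seen, were lower and did not pass. The change at the highest peak of Mrps33 passed without HDACi-Context replicate 1 (edgeR adjusted p = 0.037) and with library totals as the scale (0.020). All 11 members that rose under vehicle also rose under the drug, a comparison of groups that share no library, and 81 of 96 changes (84.4%) had the same sign. Among peaks near a TSS 94.2% of those that rose under vehicle also rose under the drug, and 82.0% had the same sign.

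Over both treatments, with 6 libraries each, 42 of 96 members rose with shock and 2 fell, against 48.4% and 3.27% of peaks near a TSS. The median change was 0.30, against 0.33 for all peaks near a TSS. Every CFC library lay above every Context library at 12 members, against 16.7%. Over all peaks tested 19.7% fell and 21.4% rose, with a median change of −0.032. Their CFC libraries all lay below the others at 4.5% and all above at 5.85%. The named rises after Mrpl28 were Mrpl54 (1.39 ± 0.20), Mrps7 (1.20 ± 0.16), Mrpl53 (1.17 ± 0.15), Mrpl12 (1.14 ± 0.16), Mrps15 (1.11 ± 0.17), Mrpl51 (1.07 ± 0.16) and Mrpl34 (1.05 ± 0.12). Mrps10, in the head of the small subunit, was 1 of the 2 drops. It held 6.12, 5.30 and 5.88 CPM in Veh-Context and 4.50, 4.14 and 2.97 in Veh-CFC, and with the drug 3.13, 4.35 and 2.86 in HDACi-Context and 2.97, 3.85 and 2.02 in HDACi-CFC, and its CFC and Context groups overlapped (−0.42 ± 0.16, edgeR adjusted p = 0.037). This call was lost when any 1 of 6 libraries was left out (edgeR adjusted p up to 0.16), with loess offsets (0.087) and with DESeq2 (0.099). The other drop, named after its values were seen, was the upstream peak of Mrps33, annotated to another transcript's promoter (−0.59 ± 0.21, edgeR adjusted p = 0.023).

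Peaks before and after the start of the same gene gave different values, though the difference was not tested. Of the members, 18 genes had 1 peak upstream and 1 downstream of the TSS, and the downstream peak was the higher of the 2 in CPM in 14 of them. With shock over both treatments the median change was 0.06 at the upstream and 0.46 at the downstream peaks, and 4 upstream and 10 downstream peaks rose. The upstream change was the lower in 13 of 18 genes. The same direction held for all peaks near a TSS, of which 31.6% rose upstream and 57.7% downstream. With the drug over both behaviours the medians were −0.53 and −0.44, and 7 peaks fell on each side.

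Single genes show both patterns. At Mrps15 the upstream peak, 651 bp wide in a control state, held 2.24, 2.21 and 2.43 CPM in Veh-Context and 1.93, 1.59 and 2.27 in Veh-CFC, and with the drug 1.04, 1.45 and 1.90 in HDACi-Context and 1.38, 1.46 and 1.26 in HDACi-CFC. The downstream peak in intron 2 of 7 held 2.91, 2.80 and 2.13 CPM in Veh-Context and 6.17, 5.20 and 4.67 in Veh-CFC, and with the drug 2.29, 2.26 and 1.29 in HDACi-Context and 4.27, 4.78 and 4.28 in HDACi-CFC. The downstream peak rose with shock over both treatments (1.11 ± 0.17, edgeR adjusted p = 1.2e-06), with CFC above Context in all libraries, whereas the groups overlapped at the upstream peak (−0.19 ± 0.23). At Mrps9, a small-subunit protein with a bacterial counterpart, the upstream peak fell with the drug from 2.17, 3.09 and 2.43 CPM in Veh-Context and 2.31, 2.01 and 1.84 in Veh-CFC to 0.904, 1.74 and 1.70 in HDACi-Context and 1.38, 0.936 and 0.756 in HDACi-CFC (−0.87 ± 0.24, edgeR adjusted p = 0.012). Its downstream peak had a change of 0.05 ± 0.18 and overlapped throughout. The Mrps9 and Mrps15 pairs were chosen after their values were seen, and the differences within them were not tested.

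**Figure D4:**
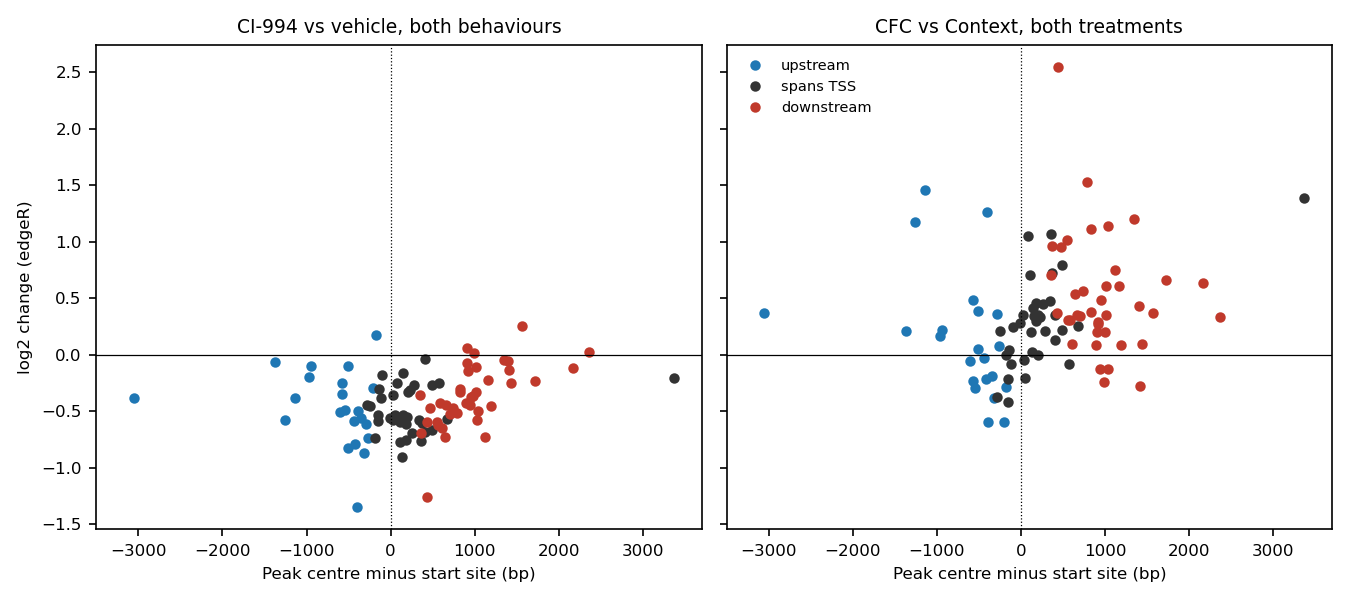
Log2 change of each member peak (points) against the distance of its centre from the TSS in bp, for the drug over both behaviours (left) and for shock over both treatments (right), coloured by whether the peak lies upstream of, over or downstream of the TSS. Under the drug most points lie below 0 at every distance, and with shock most rises lie over or downstream of the TSS (5 of 22 upstream, 16 of 35 over and 21 of 39 downstream peaks rose).

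Some of the largest folds came from small second peaks, which were singled out after their values were seen. At Mrpl41, of the large subunit, a peak of 249 bp had 0.224, 0.147 and 0.662 CPM in Veh-Context and 1.67, 1.70 and 1.56 in Veh-CFC, and with the drug 0.0695, 0.0580 and 0.204 in HDACi-Context and 1.09, 1.14 and 0.588 in HDACi-CFC. The rise with shock passed the test under vehicle (edgeR adjusted p = 0.021) and under the drug (7.2e-04). No fold is given, since these libraries held between 1 and 16 counts and the HDACi-Context libraries 1, 1 and 3. The higher peak of Mrpl41 had 0.24 ± 0.27 and −0.06 ± 0.26 and did not pass. At Mrpl12 the upstream peak of 652 bp held 1.79, 4.12 and 2.94 CPM in Veh-Context and 4.75, 5.41 and 3.82 in Veh-CFC, and with the drug 1.53, 0.406 and 0.408 in HDACi-Context and 2.46, 2.29 and 3.11 in HDACi-CFC. It had the largest drop with the drug in Context mice among the members, −1.86 ± 0.36 (edgeR adjusted p = 7.2e-04), and rose with shock under the drug (1.78 ± 0.36, edgeR adjusted p = 2.4e-04).

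Members known from human disease of mitochondrial translation, a list set by role, are given next. With the drug over both behaviours Mrpl3 (−0.62 ± 0.18, edgeR adjusted p = 0.017), Mrpl12 (−0.58 ± 0.16, edgeR adjusted p = 0.013), Mrps14 (−0.57 ± 0.14, edgeR adjusted p = 0.0051), Mrps16 (−0.83 ± 0.19, edgeR adjusted p = 0.0030), Mrps25 (−0.55 ± 0.12, edgeR adjusted p = 0.0020) and Mrps28 (−0.45 ± 0.11, edgeR adjusted p = 0.0067) fell. Changes at Mrpl44 (−0.07 ± 0.17), Mrps2 (−0.59 ± 0.24), Mrps7 (−0.05 ± 0.16) and Mrps22 (−0.04 ± 0.15) did not pass. With shock over both treatments Mrpl12, Mrps2 (1.01 ± 0.24, edgeR adjusted p = 8.6e-04), Mrps7, Mrps22 (0.35 ± 0.15, edgeR adjusted p = 0.049) and Mrps25 (0.35 ± 0.12, edgeR adjusted p = 0.020) rose. Mrps22 lost this call in 12 alternatives and Mrps25 in 6, with edgeR adjusted p up to 0.13 and 0.072. The Mrpl3 call was lost without Veh-Context replicate 1 (0.056), and the Mrpl12 drop without Veh-Context replicate 3 (0.13) or HDACi-Context replicate 3 (0.053).

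The other genes of mitochondrial translation were read in the same way, with the highest peak near the TSS of each. Of 7 other mitoribosome symbols 4 had such a peak, and 2 of the rest, Ict1 and Mrp63, are older names of Mrpl58 and Mrpl57, which are members. None of the 4 fell with the drug over both behaviours (median 0.18; 0 of 4 rose; 0 had a change below 0 and 1 above at an unadjusted p under 0.05), and all 4 rose with shock: Dap3, a small-subunit GTPase (0.48 ± 0.12), Aurkaip1 (0.78 ± 0.12), Chchd1 (0.39 ± 0.08) and Gadd45gip1 (0.55 ± 0.10). Their peaks were wide, between 1802 and 6955 bp. Of 23 measured genes of ribosome assembly and ribosomal RNA modification 13 fell with the drug and 0 rose (median −0.44). They included Gtpbp10, an assembly GTPase (−0.82 ± 0.13), Fastkd2, an RNA-binding protein (−0.84 ± 0.13), and Tfb1m, which methylates the small-subunit RNA (−1.11 ± 0.23). With shock 8 of these 23 rose and 0 fell. Of all peaks near a TSS 21.9% fell and 2.42% rose with the drug over both behaviours, and 48.4% rose and 3.27% fell with shock over both treatments.

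Of 14 measured translation factors 6 fell with the drug and 0 rose (median −0.43), among them the initiation factor Mtif2 (−0.55 ± 0.11), the elongation factor Tufm (−0.55 ± 0.14) and the release factor Mtrf1 (−0.71 ± 0.11). With shock 4 rose, including Tsfm (1.22 ± 0.22), and 1 fell, Mtrf1 (−0.36 ± 0.11). Of 18 measured genes that charge mitochondrial transfer RNAs 10 fell with the drug and 1 rose (median −0.44). Wars2 (−0.82 ± 0.14) and Rars2 (−0.70 ± 0.12) were among the drops, and Gatc, whose peak of 12975 bp is the widest in that list, rose (0.30 ± 0.08). With shock 6 rose and 1 fell. Of 9 measured regulators, among them Nrf1 (0.05 ± 0.12), Tfam (0.09 ± 0.16) and Ppargc1a (−0.17 ± 0.10), 0 fell and 0 rose with the drug by edgeR's adjusted test (median −0.17); at an unadjusted p under 0.05 2 had a change below 0 and 0 above. With shock 3 regulators rose, Esrra (1.15 ± 0.14), Gabpb1 (0.39 ± 0.13) and Polrmt (0.40 ± 0.16). These counts stand beside the 21.9% of all peaks near a TSS that fell with the drug and the 48.4% that rose with shock. Errors are SE from the same fit of 12 libraries.

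Set beside the cytosolic ribosome and the respiratory chain, the drug comparisons gave counts of the same order. Over both behaviours 42 of 96 member peaks, 38 of 101 cytosolic ribosomal protein peaks and 42 of 99 respiratory chain peaks fell, with medians of −0.45, −0.30 and −0.34. In Context mice 33, 34 and 33 fell (−0.51, −0.39 and −0.38), and in CFC mice 4, 7 and 7 (−0.36, −0.23 and −0.24). With shock over both treatments 42, 52 and 49 rose, with medians of 0.30, 0.35 and 0.28. Among all peaks near a TSS 21.9% fell over both behaviours, 21.3% in Context and 2.13% in CFC mice. With shock over both treatments 48.4% of them rose. The shares that rose in the 3 groups of genes, 43.8%, 51.5% and 49.5%, were close to this. Differences between the 3 groups of genes were not tested.

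Split by the promoter features given above, 2 of 12 genes with the NRF1 motif and 30 of 50 without it fell with the drug over both behaviours, with medians of −0.29 and −0.52. For the ETS motif the counts were 13 of 22 and 19 of 40 (−0.50 and −0.45), for YY1 5 of 12 and 27 of 50 (−0.43 and −0.47), and for a neighbour starting within 1000 bp 10 of 20 and 22 of 42 (−0.47 and −0.45). With shock over both treatments 6 of 12 genes with the NRF1 motif and 25 of 50 without rose, as did 12 of 22 and 19 of 40 for ETS, 6 of 12 and 25 of 50 for YY1, 19 of 30 and 12 of 32 for Sp1, 2 of 5 and 29 of 57 for the E-box, and 13 of 20 and 18 of 42 for a neighbour starting within 1000 bp. For Sp1 the drug counts were 13 of 30 and 19 of 32, and for the E-box 2 of 5 and 30 of 57. Of the 2 genes with the cyclic AMP response element both fell with the drug and 1 rose with shock. Each gene was read at its highest peak, which need not cover the motif. Among genes with the NRF1 motif, Mrps9, Mrpl12, Mrpl17 and Mrpl44 were read at a downstream peak. Of their upstream peaks those of Mrps9 (−0.87) and Mrpl12 (−1.35) fell with the drug. Those of Mrpl17 (−0.25) and Mrpl44 (0.17) did not pass. Beside these splits, 21.9% of all peaks near a TSS fell with the drug and 48.4% rose with shock. The splits were not tested.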

How the data were processed

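H3K27ac libraries (12, in 4 groups of 3) were analysed, and the 12 input libraries were not analysed here. The deposited table holds whole-number read counts made by the authors over 144154 peaks, with a gene, a distance to the TSS and a chromatin state per peak. Its columns name group and replicate but no antibody, and were taken as the H3K27ac libraries. The smallest count is 1 (3620 values) and none is 0, so what a 1 stands for is not known. Per the submitters' processing notes the mm10 build was used, with HOMER 4.11, DESeq2 1.28.1, DiffBind 2.16.2, MACS2, Bowtie2 2.3.5, Trimmomatic 0.38 and SAMtools 1.9 as tools whose roles are not given.

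From these counts, edgeR 4.0.16 (R 4.3.3) gave TMM-scaled CPM and the quasi-likelihood test with all 12 libraries and 1 term per group. Peaks passing filterByExpr with a minimum count of 10 were tested (144014, 140 removed; all 96 members passed), and p-values were adjusted by Benjamini-Hochberg over all of them with a threshold of 0.05. The standard error is the absolute log2 change divided by the square root of F. DESeq2 1.42.0, other scalings, other filters, a replicate block and leaving out each library were alternatives.

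A gene was read at its peak of highest mean CPM. The text names up to 8 called members per comparison and direction with the largest change (the 3 largest values where fewer than 3 were called), the 3 highest and lowest per kb, and members fixed for known roles. Members, lists and motifs were chosen with earlier results of these data known. The series text gives 3 treatments and 4 replicates where the labels give 4 groups of 3, and the labels were followed.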

Additional observations from a re-analysis of the deposited data

How the results depend on the processing

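All calls are edgeR's unless DESeq2 is named, and counts of members called are given for the drug in CFC, in Context and over both, then for shock under vehicle, under the drug and over both (4, 33, 42, 11, 36 and 44 of 96). Restricted to the 35 peaks over the TSS they were 2, 19, 21, 3, 14 and 17, with fewer members tested. Of all peaks over a TSS 3.94%, 34.4% and 33.8% fell with the drug and 16.5%, 54.6% and 55.2% rose with shock, in the same order. With a mean count of at least 50, 47 members were tested and 9, 27, 21 and 26 were called for the drug in CFC, the drug over both, shock under the drug and shock over both. Of peaks near a TSS in this filter 6.70% and 31.8% fell in these drug comparisons, and 52.5% and 57.9% rose in these shock comparisons. DESeq2 called 7 for shock under vehicle, where by it 10.3% of peaks near a TSS rose. With library totals as the scale the median level was 3.37 CPM in HDACi-Context and 4.22 in HDACi-CFC. In shock under the drug this scale moved the median of all peaks from −0.05 to −0.18. Their calls moved from 29069 higher and 25571 lower to 23366 and 37912. On this scale 27 members rose and 1 fell, against 37.3% and 4.42% of peaks near a TSS. Leaving out 1 library gave 0 to 6, 10 to 38, 35 to 43, 1 to 14, 25 to 40 and 35 to 45, and 0 to 2 for the interaction. In these fits 0.330% to 2.98%, 10.2% to 24.5% and 15.8% to 23.7% of peaks near a TSS fell with the drug. With shock 3.53% to 18.2%, 38.1% to 46.8% and 44.8% to 48.4% of them rose. For the interaction 0% to 6.32% of them passed above 0.

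Whether the replicate numbers pair the libraries was not tested. Deviations of 18 same-number pairs had a median correlation of 0.00084 (−0.28 to 0.35). Of these pairs 2 were above 0.1, and 6 of 12 libraries correlated best with their own number. With the replicate block 5, 34, 42, 11, 35 and 43 members were called, and 0 for the interaction. Of peaks near a TSS 2.17%, 21.2% and 21.8% then fell with the drug, and 14.4%, 44.8% and 48.0% rose with shock.

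Of 1682 alternative values of named members, 1555 kept direction and side of the threshold, 87 lost a call, 14 gained one and 26 changed sign, all of them uncalled values near 0. The cause was not tested. With library totals as the scale the shock value over both treatments was −0.00634 at Mrps35, and with loess offsets it was 0.0296 at Mrpl15. The other 24 sign changes came from leaving out 1 library, and the 12 such fits spanned these ranges. For the drug over both behaviours they were Mrps7 −0.164 to 0.0905, Mrps9 −0.0272 to 0.158, Mrps22 −0.0897 to 0.0126, Mrps30 −0.119 to 0.135, Mrpl20 −0.0687 to 0.0758 and Mrpl44 −0.188 to 0.0121. For the drug in Context mice they were Mrps9 −0.0493 to 0.243 and Mrpl20 −0.0907 to 0.211, and in CFC mice Mrps7 −0.0427 to 0.372. For shock over both treatments they were Mrps35 −0.0343 to 0.167 and Mrpl15 −0.0968 to 0.0207. Members with fewer than 10 counts in a library (14 of 96) limit what small second peaks can show.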
